A study of Mus musculus with 12 samples.

Results

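Cxcr4 encodes the receptor of the chemokine CXCL12, and Cxcl12 encodes the chemokine itself; their transcripts were followed in mouse embryonic fibroblasts given interleukin-1 beta (IL-1b). Every probe set with the single gene symbol Cxcr4 or Cxcl12 was taken. These 2 genes had 4 probe sets, 1 for Cxcr4 and 3 for Cxcl12, out of 34945 probe sets with 1 gene symbol and 45101 in all. The pair of genes was chosen by the measured signals: Cxcr4 was selected on its fall at 4 h in wild-type cells, so its values in that comparison, and in every comparison that uses the unstimulated or 4 h wild-type arrays, are given as a description with no test. Fibroblasts of wild-type (WT) animals and of animals with a kinase-dead form of IRAK4, the kinase that acts just below the activated interleukin-1 receptor, each gave 3 groups. One group of each genotype was grown for 4 h without stimulation, one received mouse IL-1b at 1 ng/ml for 1 h, and one received it for 4 h. No group was left unstimulated for 1 h. In changes at 1 h, and between 1 h and 4 h, IL-1b therefore cannot be told apart from time in culture. All cells were grown in DMEM with foetal calf serum, and there were 2 arrays per group, 12 over the 6 groups.

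The title of wild-type unstimulated replicate 1 gives no genotype, and the array was placed by the series design. Strain background, embryo number and passage are not stated in the labels, and samples of a group are called biological replicates without separate animals or cultures being named. The p-values therefore measure the spread between these samples, which may be technical. The Irak4 transcript was not analysed here as a check of the labels, since a kinase-dead protein can come from a transcript of normal level. Array medians were 23 to 28.3 signal units, with a trimmed mean of 150 on each array, and log2 signals correlated at 0.967 to 0.975 within groups and 0.941 to 0.973 between them. The fibroblast label was borne out in that all 10 fibroblast genes passed the filter on low signals, with a summed signal of 28405 to 34278 over the 12 arrays. At an adjusted p under 0.05 in limma, 2, 3 and 3 of the 10 were lower in kinase-dead cells without stimulation, at 1 h and at 4 h. In the same conditions 0, 0 and 1 were higher, where 14.3%, 13.3% and 23% of all genes were called in either direction. At 1 h Lum had means of 58.75 in kinase-dead and 420.7 in wild-type cells, and Pdgfra 172.8 and 773.95. Bulk RNA cannot tell fewer cells of a type from less RNA per cell.

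CXCR4 is a G protein-coupled receptor that draws cells along gradients of CXCL12. Stromal fibroblasts are a main source of CXCL12, which holds blood stem cells and lymphocytes in the bone marrow niche and guides migrating cells in the embryo. ACKR3, another receptor for CXCL12, removes the ligand rather than signalling through G proteins, and several matrix metalloproteinases and the peptidase DPP4 cut CXCL12 at its amino end, which ends its action on CXCR4.

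The proximal promoters of both genes are shown because the results below are differences in the amount of the 2 transcripts. Each is the 250 bases before the RefSeq start site in GRCm38.p6, given 5′ to 3′ on the gene's own strand, at chr1:128592300-128592549 (minus strand) for Cxcr4 and chr6:117168285-117168534 (plus strand) for Cxcl12. Capitals mark matches, on either strand, to a TATA box (TATAAA), a GC box (GGGCGG), the NRF1 site (GCGCATGCGC) or the hypoxia-response cores ACGTG and GCGTG.
Cxcr4: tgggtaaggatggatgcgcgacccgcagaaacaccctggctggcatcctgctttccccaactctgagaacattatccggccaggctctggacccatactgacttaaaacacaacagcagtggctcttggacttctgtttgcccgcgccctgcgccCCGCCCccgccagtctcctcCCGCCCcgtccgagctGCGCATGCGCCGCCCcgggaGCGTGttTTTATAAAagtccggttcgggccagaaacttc
Cxcl12: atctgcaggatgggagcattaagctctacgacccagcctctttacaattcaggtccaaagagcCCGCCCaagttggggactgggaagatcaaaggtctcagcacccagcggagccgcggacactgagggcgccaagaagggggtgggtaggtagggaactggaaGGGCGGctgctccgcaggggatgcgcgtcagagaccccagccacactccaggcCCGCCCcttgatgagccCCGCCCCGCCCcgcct

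The Cxcr4 window held 2 overlapping TATA box matches starting 32 and 30 bases before the start site, against 0 in the Cxcl12 window; 12.4% of all 32851 windows of this length hold one. GC boxes were found 3 times before Cxcr4 and 5 times before Cxcl12, and in 32.7% of all windows. The Cxcr4 window also held 1 NRF1 site, which overlaps the GC box nearest the start site and is present in 0.782% of windows, and 1 GCGTG core, present in 28.2%. ACGTG, present in 16.6% of windows, and the kappaB consensus, present in 3.9%, had no match in either window. The matches describe letters and not binding. Both windows were rich in G and C, at 61.2% for Cxcr4 and 64.4% for Cxcl12 against a median of 52.4%, and held 19 and 14 CpG pairs.

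Cxcr4, the receptor, was lower after IL-1b in wild-type cells and was not shown to move in kinase-dead cells. Its probe set, 1448710_at, read 89.7 and 65.9 in the 2 unstimulated wild-type arrays, 38.2 and 20.1 at 1 h, and 10.7 and 8.3 at 4 h. Each step separated completely, with every array of a later group below every array of the earlier one. The group means were 77.8 ± 16.8, 29.2 ± 12.8 and 9.50 ± 1.70 (SD, n = 2). On its own array the probe set went from the 71.9 and 66.7 percentile of all probe sets to the 31.3 and 24.6 percentile at 4 h, which is below the array median.

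Both 4 h arrays lay under 25.5, the median of all signals and the filter level here, so the 4 h level is a bound: with 25.5 in its place, the signal mean was at least 3.05-fold lower than without stimulation. At 1 h the mean was 2.67-fold lower, with 1 of the 2 arrays above that level. On the log2(signal + 8) scale the differences were -1.24 at 1 h (95% interval -1.83 to -0.64), -2.28 at 4 h (-2.88 to -1.69) and -1.05 between 1 h and 4 h, each with a standard error of 0.28. These intervals are not a test, because Cxcr4 was chosen on its fall at 4 h. The 4 h signals are close to the added 8, and the 4 h value was -2.90 with 1 and -1.40 with 32 added instead. Calls over all genes at 4 h, at an adjusted p under 0.05 in limma, took 12.1% of genes, 4.66% higher and 7.39% lower, and the median difference of all genes was -0.12; at 1 h they took 7.47% of genes and between 1 h and 4 h 19%.

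**Figure D1:**
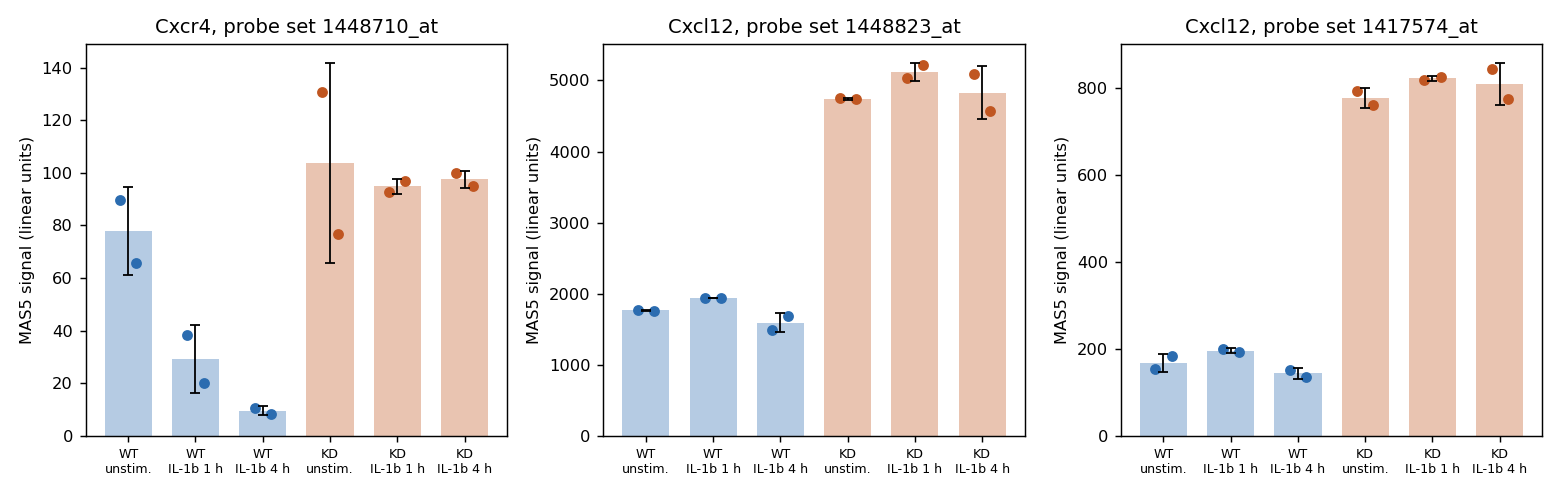
Signal of the Cxcr4 probe set and of the 2 brighter Cxcl12 probe sets on a linear axis starting at 0, in the 6 groups (WT, wild type; KD, kinase-dead; unstim., unstimulated); bars are group means, points are the 2 arrays and error bars are SD. Cxcr4 drops to 9.50 in wild-type cells at 4 h while all 6 kinase-dead arrays lie between 76.9 and 130.8, and the brightest Cxcl12 probe set (middle panel) lies between 4565 and 5213 in kinase-dead cells and between 1494 and 1942 in wild-type cells.

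In kinase-dead cells no change of the receptor transcript passed the test. The arrays read 130.8 and 76.9 without IL-1b, 92.9 and 97.0 at 1 h, and 99.9 and 95.2 at 4 h. The 3 groups overlap, and the first unstimulated replicate is the highest of the 12 arrays. The change was -0.08 at 1 h (95% interval -0.67 to 0.52, adjusted p = 0.932, limma) and -0.04 at 4 h (-0.63 to 0.55, adjusted p = 0.971, limma), and 0.04 between 1 h and 4 h (adjusted p = 0.969, limma). The means compared here use no wild-type array, so these changes do not rest on the arrays that chose Cxcr4. The spread behind the intervals and p-values was estimated over all 12 arrays, wild-type arrays among them. The intervals still allow a fall of 0.67 at 1 h and 0.63 at 4 h on the log2 scale. Over all genes, 3.27% were called at 1 h in kinase-dead cells, 0.618% at 4 h and 4.08% between 1 h and 4 h.

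At 1 h the kinase-dead arrays (92.9 and 97.0) lay above the wild-type arrays (38.2 and 20.1), a ratio of means of 3.26. The wild-type array at 20.1 lay under the filter level of 25.5, so this ratio rests in part on a dim signal. The difference of 1.51 (95% interval 0.92 to 2.11, SE 0.28) passed the test (adjusted p = 0.00105, limma), in a comparison where 6.94% of genes were called higher in kinase-dead cells. It shares no array with the comparison that chose Cxcr4, although the wild-type 1 h arrays come from the same series of cells. Without stimulation the genotypes overlapped, 130.8 and 76.9 against 89.7 and 65.9, and the log2 difference was 0.35 (95% interval -0.24 to 0.95). At 4 h the kinase-dead mean of 97.5 was at least 3.83-fold the wild-type level, with 25.5 in place of the wild-type mean of 9.50. The fitted log2 difference at 4 h was 2.60, and 3.24 or 1.64 with 1 or 32 added to the signals in place of 8. Neither value is tested, since both rest on wild-type arrays that chose Cxcr4.

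The difference between the genotypes in the response itself, kinase-dead minus wild-type change, was 1.16 ± 0.40 at 1 h (SE; 95% interval 0.32 to 2.0). The 4 h value was 2.24 ± 0.40 (95% interval 1.40 to 3.08). Both are descriptions with no test, because they share wild-type arrays with the choosing comparison. For the same reason, an interval that leaves out 0 is not a test here. Over all genes 0.49% were called for such a difference at 1 h. Cxcr4 did not reach that threshold, which is likewise a description and does not show that the responses were alike.

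In order of level the 6 Cxcr4 groups ran from kinase-dead unstimulated (104 ± 38.1) through kinase-dead 4 h (97.5 ± 3.32), kinase-dead 1 h (94.9 ± 2.90) and wild-type unstimulated (77.8) to wild-type 1 h and wild-type 4 h. The 3 kinase-dead groups overlap one another, and unstimulated kinase-dead cells overlap unstimulated wild-type cells. The 2 stimulated wild-type groups overlap no other group.

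Cxcl12, the ligand, was higher in kinase-dead than in wild-type cells in all 3 conditions and did not pass the test for a response to IL-1b against unstimulated cells of either genotype. Its brightest probe set, 1448823_at, read 1767.3 and 1761.2 in unstimulated wild-type cells, 1942.3 and 1942.1 at 1 h, and 1493.5 and 1685.9 at 4 h. In kinase-dead cells it read 4753.0 and 4732.4 without stimulation, 5031.1 and 5213.3 at 1 h, and 5090.0 and 4565.1 at 4 h. The genotypes do not overlap: the lowest kinase-dead array read 4565.1 and the highest wild-type array 1942.3.

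The log2 difference between genotypes was 1.42 without stimulation (95% interval 1.25 to 1.59, adjusted p = 2.88e-09, limma), a ratio of means of 2.69. It was 1.40 at 1 h (1.23 to 1.56, adjusted p = 2.1e-09, limma) and 1.60 at 4 h (1.43 to 1.77, adjusted p = 2.2e-10, limma), with ratios of 2.64 and 3.04 and a standard error of 0.08 for each. With the mean over its probe sets, the dim one included, the unstimulated difference was 0.86 (adjusted p = 0.00578, limma). Genes called higher in kinase-dead cells were 7.38%, 6.94% and 13.8% of those tested in the 3 conditions, out of 14.3%, 13.3% and 23% called in either direction. By size Cxcl12 had rank 145, 170 and 169 among 12456 genes. It was one of 449 genes (3.6%) called higher in kinase-dead cells in all 3 conditions and one of 161 (1.29%) that were also at least 1 higher on the log2 scale in each.

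The response of Cxcl12 in wild-type cells was small in both directions. At 1 h both arrays lay above both unstimulated arrays, by 0.14 (95% interval -0.03 to 0.31, adjusted p = 0.338, limma). At 4 h both lay below, by -0.15 (-0.32 to 0.02, adjusted p = 0.24, limma). The step between 1 h and 4 h, -0.29 (-0.46 to -0.12), passed the test (adjusted p = 0.0166, limma), where 10.6% of genes were called lower at 4 h than at 1 h. That call ended without wild-type 1 h replicate 1 (-0.29, adjusted p = 0.0868, limma) or replicate 2 (-0.29, adjusted p = 0.089, limma), without wild-type 4 h replicate 1 (-0.20, adjusted p = 0.153, limma), and with arrays centred on their medians (-0.22, adjusted p = 0.0691, limma).

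Kinase-dead cells gave Cxcl12 changes of 0.11 at 1 h (95% interval -0.06 to 0.28, adjusted p = 0.531, limma), 0.02 at 4 h (-0.15 to 0.19, adjusted p = 0.934, limma) and -0.09 between 1 h and 4 h (adjusted p = 0.624, limma). The genotypes were not shown to respond differently: the response difference was -0.03 ± 0.11 at 1 h (SE; 95% interval -0.27 to 0.21, adjusted p = 0.972, limma). At 4 h it was 0.18 ± 0.11 (-0.06 to 0.41, adjusted p = 0.468, limma), in a comparison where 3.03% of genes were called. From the highest level down, the groups were kinase-dead 1 h (5122 ± 129), kinase-dead 4 h (4828 ± 371), kinase-dead unstimulated (4743 ± 14.6), wild-type 1 h (1942 ± 0.141), wild-type unstimulated (1764 ± 4.31) and wild-type 4 h (1590 ± 136). Among neighbours in this order, kinase-dead 4 h overlaps both other kinase-dead groups, while the 3 wild-type groups do not overlap.

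The second Cxcl12 probe set, 1417574_at, gave the same order of genotypes with larger log2 differences. It read 153.4 and 182.6 in unstimulated wild-type cells, 199.9 and 192.2 at 1 h, and 152.4 and 134.9 at 4 h. The kinase-dead arrays read 794.9 and 762.4 without stimulation, 819.0 and 827.3 at 1 h, and 845.2 and 776.3 at 4 h. The groups of the genotypes do not overlap, and the differences were 2.16 (adjusted p = 3e-09), 2.03 (adjusted p = 3.74e-09) and 2.43 (adjusted p = 2.29e-10) without stimulation, at 1 h and at 4 h in limma over all probe sets, where 5.48%, 5.64% and 9.77% were called higher. In wild-type cells it was lower at 4 h than at 1 h by -0.43 (adjusted p = 0.0249, limma; 7.59% of probe sets were called lower), as the brighter probe set was; against unstimulated cells it gave 0.22 at 1 h (adjusted p = 0.343, limma) and -0.21 at 4 h (adjusted p = 0.342, limma).

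The third Cxcl12 probe set, 1439084_at, was dim and did not follow the others. It read between 2.8 and 30.0 over the 12 arrays and reached the filter level of 25.5 on 2 of them, wild-type unstimulated replicate 1 (30.0) and kinase-dead 4 h replicate 1 (27.8). Its replicates differed widely, at 30.0 and 4.9 in unstimulated wild-type cells and 27.8 and 4.0 in kinase-dead cells at 4 h. None of the 11 comparisons was called for it in limma, and its genotype differences of -1.02, -0.42 and 0.76 had a standard error of 0.64. MAS5 signals of different probe sets depend on their probes, so the levels of the 3 probe sets, or of Cxcl12 and Cxcr4, cannot be ranked against each other.

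**Figure D2:**
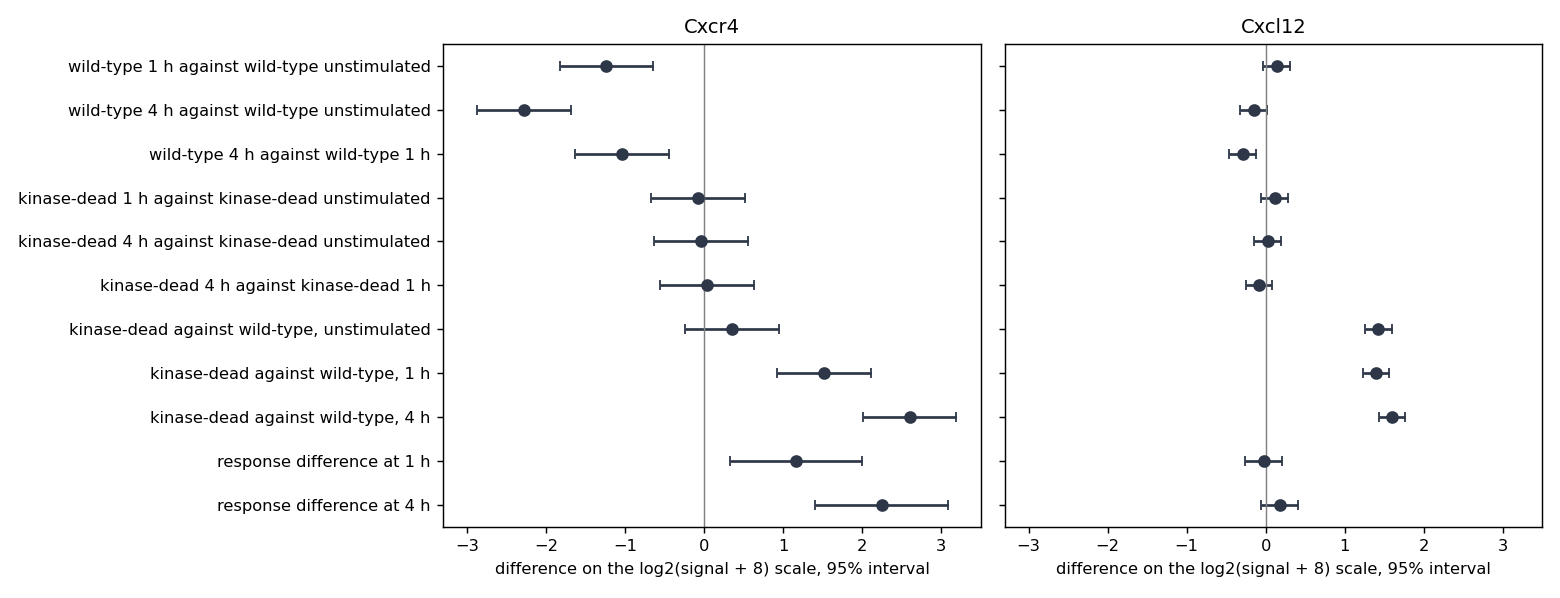
Log2 differences of Cxcr4 and of the brightest Cxcl12 probe set in the 11 comparisons, on the log2(signal + 8) scale with 95% intervals from the limma fit. Intervals of Cxcr4 in comparisons that use the unstimulated or 4 h wild-type arrays are not tests. Cxcr4 lies far below 0 in the wild-type responses (-1.24 and -2.28, descriptions) and near 0 in the kinase-dead ones (-0.08 and -0.04), and Cxcl12 lies far above 0 in the genotype comparisons (1.40 to 1.60).

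Markers of other cell types were measured in the same arrays. The summed signal of endothelial markers, a cell type that carries Cxcr4, was 90.8 to 116 in unstimulated wild-type cells, 62.1 to 99.0 at 1 h and 42.5 to 56.3 at 4 h. In kinase-dead cells, where no change of Cxcr4 passed the test, it was 77.8 to 93.8, 75.2 to 81.6 and 98.0 to 120. Just 3 of the 8 endothelial genes passed the filter. Limma called 0 of these in wild-type cells at 4 h (0 at an unadjusted p under 0.05), where 12.1% of all genes were called. The 3 that passed, Cdh5, Kdr and Emcn, had means of 13.45, 3.05 and 10.75 in wild-type cells at 4 h. In kinase-dead cells at 4 h their means were 23.4, 16.7 and 21.45. Pecam1 and Tie1, which did not pass, read at most 18.6 and 15.6 on any array. Lymphoid markers, with 1 of the 6 measured genes passing the filter, summed to 33.5 to 69.5 over all arrays.

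Some macrophage and neural markers were called higher in kinase-dead cells, as Cxcl12 was, and 0 of either list were called lower in limma (0 at an unadjusted p under 0.05). The macrophage sum was 249 to 301 over the wild-type arrays and 583 to 698 over the kinase-dead arrays. In this list 8 of 10 genes passed the filter. Of these, 5, 6 and 4 were called higher without stimulation, at 1 h and at 4 h. Of all genes, 7.38%, 6.94% and 13.8% were called higher in these conditions. Ptprc, the pan-leukocyte antigen CD45, had group means of 5.9 to 13.6 in wild-type and 37.3 to 46.8 in kinase-dead cells. Its wild-type means lay under the filter level. At 1 h and 4 h so did those of Adgre1 (7.45 and 10.1), Mpeg1 (5.45 and 17) and Tyrobp (23.75 and 23). Such genes can pass the filter through the kinase-dead arrays, where they were high, which favours calls in that direction. Lyz2 and Fcer1g, called higher at 1 h and 4 h, had wild-type means above the filter level. Cd68 (adjusted p = 0.908 and 0.407, limma) and Csf1r (adjusted p = 0.446 and 0.741, limma) passed the filter but were called at neither time. Cd14 and Itgam did not pass it. The neural sum was 206 to 346 over the wild-type arrays and 579 to 696 over the kinase-dead arrays, with 5 of 8 measured genes passing. Of these, 2, 3 and 2 were called higher, against the same shares of all genes. Sox2 and Fabp7 were called in all 3 conditions, while Pax6 and Tubb3 were called in none. The actin 3′ to 5′ ratio, a sign of RNA quality, averaged 2.85 in kinase-dead cells without stimulation against 2.36 to 2.49 elsewhere. The part of these cell types or of RNA quality in the Cxcr4 and Cxcl12 results was not tested.

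The other receptors for CXCL12 and for the CXCR4 ligand MIF were not called against unstimulated cells in either genotype. Ackr3, the scavenging receptor, had mean signals of 1069 without stimulation, 1010 at 1 h and 1066 at 4 h in wild-type cells, a difference of -0.01 ± 0.11 at 4 h (SE, adjusted p = 0.971, limma). In kinase-dead cells the means were 1296, 1204 and 1614, a change of 0.31 ± 0.11 from unstimulated cells at 4 h (adjusted p = 0.207, limma). The step from 1 h to 4 h in kinase-dead cells, 0.42 ± 0.11, was called (adjusted p = 0.0419, limma). That call ended without any one of the kinase-dead 1 h, kinase-dead 4 h or wild-type 1 h arrays (adjusted p = 0.0633 to 0.303, limma). At 4 h Ackr3 was higher in kinase-dead cells by 0.59 ± 0.11 (adjusted p = 0.000651, limma), with arrays at 1477 and 1752 against 973 and 1159. Cd74, which pairs with CXCR4 as a receptor for MIF, read 21.9 to 38.6 over all arrays and was called in none of the 11 comparisons, and neither was Mif.

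Among proteases known to cut CXCL12, 3 matrix metalloproteinases rose in the wild-type arrays where Cxcr4 was low. At 4 h 3 of 6 tested proteases rose and 0 fell, against 4.66% and 7.39% of all genes, with a median difference of 0.95 against -0.12 over all genes. Mmp13 (collagenase 3) rose from 231 and 285 to 1202 and 1321, by 2.26 ± 0.19 (adjusted p = 2.81e-07, limma). Mmp9 (gelatinase B) rose from 71.6 and 95.4 to 489 and 527, by 2.51 ± 0.25 (adjusted p = 3.19e-06, limma). Mmp3 (stromelysin 1) rose from 396 and 416 to 1252 and 1262, by 1.61 ± 0.17 (adjusted p = 6.24e-06, limma). In kinase-dead cells limma called 0 of the 6 at 1 h and at 4 h (3.27% and 0.618% of all genes), where 0 and 1 of the 6 had an unadjusted p under 0.05.

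These same 3 proteases were low in kinase-dead cells, where Cxcl12 was high. At 4 h Mmp13 was at 20.8 and 23.5 in kinase-dead cells, lower than in wild-type cells by -5.40 ± 0.19 (adjusted p = 6.39e-12, limma), and Mmp3 was at 53.3 and 53.5, lower by -4.37 ± 0.17 (adjusted p = 1.79e-11, limma). Mmp9 was at 37.0 and 43.1, a difference of -3.43 ± 0.25 (adjusted p = 2.8e-08, limma). Mmp2 (gelatinase A) was on the side of Cxcl12, with 1057 and 1139 in kinase-dead against 635 and 637 in wild-type cells at 4 h, a difference of 0.78 ± 0.12 (adjusted p = 0.000162, limma). Dpp4 and Mmp14 were called in none of the comparisons between unstimulated and stimulated cells or between genotypes. The list thus had 1 member higher and 3 lower in kinase-dead cells in each condition, and 23% of all genes were called at 4 h. A link between the protease transcripts and those of Cxcr4 or Cxcl12 was not tested. The CXCL12 protein, on which these proteases act, was not measured.

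**Figure D3:**
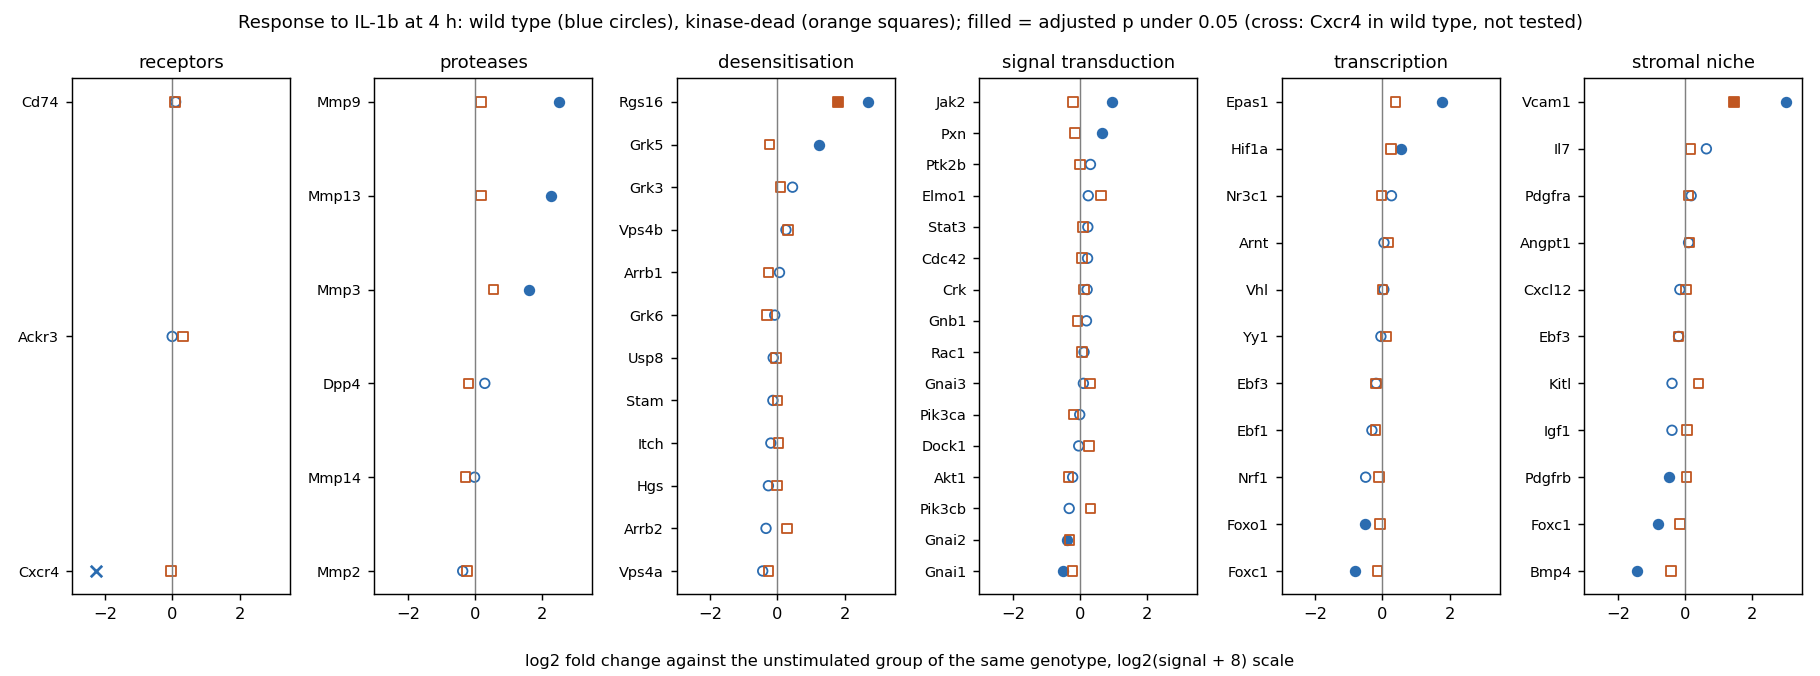
Log2 fold change at 4 h of IL-1b against unstimulated cells for 6 lists of genes around CXCR4 and CXCL12, in wild-type cells (blue circles) and kinase-dead cells (orange squares); filled marks have an adjusted p under 0.05 in limma, and the cross is Cxcr4 in wild-type cells, which was not tested. Mmp9, Mmp13, Mmp3, Rgs16, Epas1 and Vcam1 lie at 1.61 or more in wild-type cells, and of these Rgs16 and Vcam1 are filled in kinase-dead cells too.

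Of genes that switch CXCR4 off or carry it to the lysosome, the share called was near that of all genes (12.1%), with 2 of 12 tested members higher and 0 lower in wild-type cells at 4 h in limma (1 lower at an unadjusted p under 0.05) and a median of -0.11. Rgs16, which speeds the return of G proteins to rest, rose from 226 and 292 to 1362 and 1387 at 1 h (2.38 ± 0.15, adjusted p = 1.14e-08, limma) and to 1624 and 1796 at 4 h (2.70 ± 0.15, adjusted p = 1.39e-09, limma). It was also the one list member called in kinase-dead cells, where it rose from 95.4 and 101 to 341 and 387 at 4 h (1.81 ± 0.15, adjusted p = 1.52e-06, limma). Grk5, a kinase that phosphorylates active receptors, rose at 4 h in wild-type cells from 136 and 145 to 322 and 364 (1.24 ± 0.19, adjusted p = 0.000231, limma). The arrestins Arrb1 and Arrb2, which uncouple the receptor, and the ubiquitin ligase Itch, which sorts it for degradation, were not called at 4 h in either genotype.

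Among genes that carry the CXCR4 signal, 2 of 16 rose and 2 fell in wild-type cells at 4 h, against 4.66% and 7.39% of all genes. In kinase-dead cells limma called 0 of 16 at 1 h and at 4 h (3.27% and 0.618% of all genes), with 3 at an unadjusted p under 0.05 each time. Jak2, a tyrosine kinase linked to cytokine and chemokine receptors, rose from 746 and 1020 to 1673 and 1709 (0.95 ± 0.14, adjusted p = 0.000142, limma). Gnai1, an inhibitory G protein subunit that couples to CXCR4, fell from 556 and 588 to 368 and 439 (-0.50, adjusted p = 0.00729, limma). The Gnai1 call ended without wild-type 4 h replicate 1 (-0.37, adjusted p = 0.0965, limma) and with arrays centred on their medians (-0.35, adjusted p = 0.0577, limma).

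Regulators of Cxcr4 or Cxcl12 transcription split at 4 h in wild-type cells, with 2 of 11 higher and 2 lower, against 4.66% and 7.39% of all genes, and a median of -0.05. In kinase-dead cells limma called 0 of 11 at 1 h and at 4 h (3.27% and 0.618% of all genes), with 2 at an unadjusted p under 0.05 each time. Epas1, the hypoxia-inducible factor HIF-2 alpha, rose from 83.6 and 104 to 322 and 354 (1.77 ± 0.15, adjusted p = 2.66e-07, limma). Hif1a, its relative HIF-1 alpha, rose from 3269 and 3759 to 4635 and 5612 (0.54 ± 0.09, adjusted p = 0.000695, limma). Both are known activators of Cxcr4. A link between their transcripts and the level of Cxcr4 was not tested.

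Foxc1, a forkhead factor needed for CXCL12-rich niche cells, ran with Cxcl12 between the genotypes. It read 636 and 697 in unstimulated wild-type cells and 1640 and 1640 in unstimulated kinase-dead cells, a difference of 1.29 ± 0.10 (adjusted p = 7.06e-08, limma). The difference was 1.11 at 1 h (adjusted p = 3.09e-07, limma) and 1.95 at 4 h (adjusted p = 1.85e-10, limma). In wild-type cells Foxc1 read 847 and 925 at 1 h, a change of 0.41 ± 0.10 (adjusted p = 0.0147, limma), and 354 and 402 at 4 h, a change of -0.81 ± 0.10 (adjusted p = 1.91e-05, limma). The 1 h call ended without wild-type unstimulated replicate 1 (adjusted p = 0.0588, limma) or wild-type 1 h replicate 2 (adjusted p = 0.155, limma).

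Stromal niche genes, a list that holds Cxcl12, Foxc1 and other factors made by bone marrow stroma, had members on both sides between genotypes. Of 11 tested, 4 were higher and 3 lower in kinase-dead cells without stimulation, 4 and 3 at 1 h, and 7 and 3 at 4 h, where 14.3%, 13.3% and 23% of all genes were called; the list itself was not tested. In wild-type cells 4 rose and 0 fell at 1 h (0 lower at an unadjusted p under 0.05 in limma), and 1 rose and 3 fell at 4 h, where 7.47% and 12.1% of all genes were called. Bmp4, a bone morphogenetic protein, was at 207 and 209 in unstimulated wild-type and 584 and 662 in unstimulated kinase-dead cells (1.54 ± 0.12, adjusted p = 9.21e-08, limma). In wild-type cells it first rose, to 313 and 344 at 1 h (0.64 ± 0.12, adjusted p = 0.00261, limma), and then lay below the unstimulated level, at 71.2 and 71.8, at 4 h (-1.44 ± 0.12, adjusted p = 2.36e-07, limma). Igf1, an insulin-like growth factor, was higher in kinase-dead cells by 1.17, 0.98 and 1.62 in the 3 conditions (adjusted p = 0.000113, 0.000563 and 1.57e-06, limma).

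The list did not move as one. Pdgfra, a growth factor receptor of mesenchymal cells, was lower in kinase-dead cells by -2.09, -2.11 and -2.17 (adjusted p = 1.38e-08, 7.51e-09 and 3.99e-09, limma), with arrays at 118 and 146 against 581 and 586 without stimulation. Vcam1, an adhesion molecule that holds blood cells to stroma, rose in wild-type cells from 233 and 446 to 2501 and 2862 at 4 h (3.02 ± 0.21, adjusted p = 4e-08, limma). In kinase-dead cells Vcam1 rose by 1.46 ± 0.21 at 4 h (adjusted p = 0.00212, limma), a call that ended without kinase-dead 4 h replicate 1 (1.32, adjusted p = 0.0632, limma).

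Other chemokine receptors and homeostatic chemokines gave few calls. Of 19 other chemokine receptors on the array, 6 were tested. Of these, 1 rose and 0 fell in wild-type cells at 4 h, against 4.66% and 7.39% of all genes. In kinase-dead cells limma called 0 at 1 h and at 4 h (3.27% and 0.618% of all genes), with 0 at an unadjusted p under 0.05. Of 6 tested homeostatic chemokines, Cxcl12 among them, limma called 0 against unstimulated cells in either genotype. In wild-type cells 7.47% and 12.1% of all genes were called at 1 h and 4 h. At an unadjusted p under 0.05 there was 1 homeostatic chemokine, in wild-type cells at 4 h. Between genotypes this list had 1 member higher, Cxcl12, and 1 lower in each condition, where 14.3%, 13.3% and 23% of all genes were called. The lower one was Cxcl14, a chemokine of skin and mucosa, which read 633 and 808 in unstimulated wild-type and 45.1 and 95.7 in unstimulated kinase-dead cells (-3.28 ± 0.23, adjusted p = 2.87e-08, limma).

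The genes whose log2 signal over the 12 arrays was most like that of Cxcr4 were Olfml2b (Pearson r = 0.972), Cand2 (0.970), Pik3ip1 (0.948), Akap6 (0.946) and 2610008E11Rik (0.945), among 3026 genes whose group means spanned at least 1 on the log2 scale. Olfml2b had mean signals of 133, 78.7 and 62.2 in wild-type cells (unstimulated, 1 h, 4 h) and 171, 156 and 175 in kinase-dead cells. Cand2 had means of 63.6, 41.6 and 23.2 in wild-type cells and 85.9, 87.2 and 87.5 in kinase-dead cells. For Cxcl12 they were Hoxb5os (0.993), Ccdc141 (0.992), Hecw1 (0.992), Prss35 (0.992) and Nrk (0.991). All 5 were higher in kinase-dead cells in each condition. That follows from their choice, since Cxcl12 differs mainly between the genotypes, and is no separate result. Hoxb5os (12.1 to 24.8) and Hecw1 (14.6 to 19.9) had all their wild-type group means under the filter level. Nrk, a kinase gene, had means of 48.2, 63.5 and 48.5 in wild-type and 451, 601 and 521 in kinase-dead cells. The arrays share 6 groups, so these correlations describe likeness of group pattern and carry no p.

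**Figure D4:**
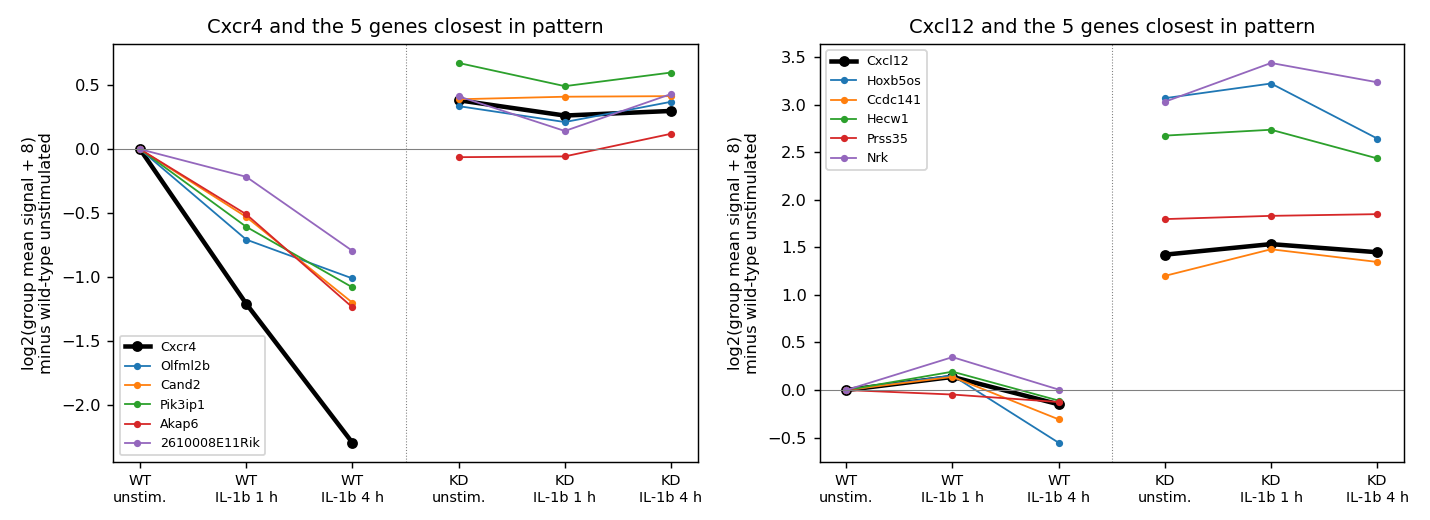
Group means of Cxcr4 and Cxcl12 (black) and of the 5 genes closest to each, as log2(signal + 8) relative to unstimulated wild-type cells. The genes chosen for likeness to Cxcr4 fall over the 3 wild-type groups and lie near or above unstimulated wild-type cells in the kinase-dead groups (KD), and those chosen for likeness to Cxcl12 step up between the genotypes.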

How the data were processed

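Total RNA of 12 fibroblast samples, purified on RNeasy columns and labelled by the NuGEN Ovation method per the labels, was measured on 1-colour Affymetrix arrays. The deposited values are MAS5 signal intensities on a linear scale, per the submitters' processing notes; the version of MAS5 is not given in the sources used here, and detection calls were not used. Of 45101 probe sets, 64 are controls, 34945 carry 1 gene symbol in the platform annotation, 932 carry more than 1 and 9160 carry none; names came from the first kind, of which 34741 matched the RefSeq table of GRCm38.p6.

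Signals were analysed as log2(signal + 8), where 8 is the power of 2 nearest the 25th percentile of all signals (7.9). Probe sets that reached 25.5, the median of all signals, on at least 2 arrays entered, and the one with the highest mean stood for its gene (12456 genes). limma 3.58.1 (R 4.3.3) fitted 6 group means, which left 6 residual degrees of freedom (eBayes with trend, two-sided, Benjamini-Hochberg within each of 11 comparisons; called at an adjusted p under 0.05). Probe sets of Cxcr4 and Cxcl12 were also fitted with all probe sets that passed. The scripts were tested on simulated data. Same-numbered replicates did not deviate together (r = -0.0509 to 0.0990 over 15 pairs of groups, 0 above 0.1), so no block was used. Promoters came from RefSeq. Plots used matplotlib 3.10.9 and Python 3.11.15.

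Named genes were all probe sets of Cxcr4 and Cxcl12, called members of each list by size (at most 4 per list and comparison), some genes in any comparison (Ackr3, Dpp4, Mmp2, Mmp9, Mmp14, Hif1a, Foxc1) and the 5 most like genes; fewer are named than the rule gives, and steady calls were preferred. The members and lists were chosen with earlier results of these data known. Alternatives covered the pseudocount, filter, normalization, variance model, choice of probe set, arrays fitted, replicate block and leaving out each array.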

Additional observations from a re-analysis of the deposited data

Results flagged for a closer look

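Genes of the pathway lists whose response to IL-1b differed between the genotypes are given here as the kinase-dead minus the wild-type change on the log2 scale, with the adjusted p of limma's interaction term over all genes; no list was tested. At 4 h the response was lower in kinase-dead cells for the proteases Mmp9 (-2.33, adjusted p = 0.00111), Mmp13 (-2.08, adjusted p = 0.000194) and Mmp3 (-1.06, adjusted p = 0.0232). It was also lower for the transcription factor Epas1 (-1.39, adjusted p = 0.000834), the adhesion molecule Vcam1 (-1.56, adjusted p = 0.00696), the receptor kinase Grk5 (-1.48, adjusted p = 0.00349), the tyrosine kinase Jak2 (-1.16, adjusted p = 0.00204) and the focal adhesion protein Pxn (-0.80, adjusted p = 0.0221). Rgs16 differed at 1 h (-1.64, adjusted p = 0.000414) and at 4 h (-0.89, adjusted p = 0.0237).

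The response was higher, in that the fall was smaller, in kinase-dead cells for Bmp4 (1.02, adjusted p = 0.00172, limma) and Foxc1 (0.66, adjusted p = 0.0107, limma) at 4 h.

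Leaving out 1 array ended some of these calls in limma, in the same direction. For Foxc1 these were wild-type 4 h replicate 1 (adjusted p = 0.0585) and kinase-dead 4 h replicate 1 (adjusted p = 0.0669), and for Vcam1 kinase-dead 4 h replicate 2 (adjusted p = 0.0518). For Mmp3 they were either wild-type 4 h array, kinase-dead unstimulated replicate 2 and either kinase-dead 4 h array (adjusted p = 0.0770 to 0.0835). For Pxn they were either wild-type 4 h array, kinase-dead unstimulated replicate 1 and either kinase-dead 4 h array (adjusted p = 0.0710 to 0.103). For Rgs16 at 4 h they were wild-type unstimulated replicate 2, either wild-type 4 h array, kinase-dead unstimulated replicate 2 and kinase-dead 4 h replicate 1 (adjusted p = 0.0518 to 0.119).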

How the results depend on the processing

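Over the 22 results of Cxcr4 and Cxcl12 and 21 other settings, 451 of 462 alternatives kept direction and, where one was made, call. The 22 include the Cxcr4 comparisons that use the unstimulated or 4 h wild-type arrays, which are descriptions with no test. The total is therefore no support for those comparisons. The pseudocount moved the 4 h values of Cxcr4: with 1 and 32 in place of 8, the wild-type change was -2.90 and -1.40, the genotype difference 3.24 and 1.64, and the response difference 2.86 and 1.36. The wild-type step of Cxcl12 from 1 h to 4 h lost its call with arrays centred on their medians (-0.22, adjusted p = 0.0691, limma) and with eBayes without the trend (-0.29, adjusted p = 0.102, limma), and ran from -0.38 to -0.20 when single arrays were left out; fewer samples set the spread there, and the cause of the other losses was not tested. The Cxcl12 genotype difference held in every setting run, at 0.86 to 1.46 without stimulation, 1.00 to 1.42 at 1 h and 1.51 to 1.69 at 4 h, and the Cxcr4 difference at 1 h ran from 1.07 to 1.87 with adjusted p from 0.000417 to 0.028 in limma. With the replicate block Cxcr4 differed by 1.51 at 1 h and the wild-type step of Cxcl12 was -0.29; the block changed no call of either gene, but the numbers do not pair the samples. With the mean over a gene's probe sets, the signs of Ebf3 between genotypes at 4 h (-0.094) and of Itch between 1 h and 4 h in wild-type cells (0.088) reversed, 2 of 8085 alternatives of other listed genes. Counts of called genes, which serve as background here, moved by over 1.5 times in some settings. Wild-type 1 h, 930, became 465 without the trend and 409 with just the groups compared. Wild-type 4 h, 1501, became 662 with just the groups compared. Kinase-dead 1 h, 407, became 271 without the filter, 57 without the trend and 237 with probe-set means. Kinase-dead 4 h, 77, became 49 without the filter, 22 without the trend and 304 with just the groups compared. Kinase-dead 4 h against 1 h, 508, became 81 without the trend, 329 with probe-set means and 1002 with just the groups compared. The unstimulated genotype count, 1786, became 1083 with just the groups compared. The response difference fell from 61 to 19 at 1 h and from 377 to 156 at 4 h without the trend. With single arrays left out, the wild-type counts ran from 410 to 1008 at 1 h, 962 to 1553 at 4 h and 1375 to 2764 between them. The kinase-dead counts ran from 94 to 646, 28 to 316 and 119 to 889, the genotype counts from 1061 to 1994, 1000 to 1966 and 1857 to 3213, and the response differences from 35 to 103 and 216 to 719. With 2 arrays a group, and with Cxcr4 near the dim end of the array at 4 h, small changes were not detectable.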
